A study of Caenorhabditis elegans with 2 samples.

Results

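The regions described here were 951 autosomal SNU-23-GFP peaks far from genes. They were chosen by position alone, from the authors' final ce11 list of 6675 peaks: the summit had to lie on an autosome, inside no annotated gene of any biotype, and more than 500 bp from the 5' end and the 3' end of every gene. They made up 17.9% of the 5322 autosomal final peaks. Of the other autosomal peaks, 3203 had their summit within 500 bp of a gene's 5' end, 325 lay near a 3' end, and 843 lay inside a gene away from its ends. The X chromosome held a further 316 peaks that met the same distance criteria.

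All samples belonged to 1 group with 2 biological replicates. They were whole hermaphrodite first-stage (L1) larvae of Caenorhabditis elegans strain OP528, which had been starved after bleaching and were collected 6 hours after synchronization. The strain carries wgIs528, a fosmid-derived transgene in which snu-23 ends in a TY1, EGFP and 3xFLAG tag and which also holds unc-119(+), in an unc-119(tm4063) background. Sonicated chromatin was precipitated with an antibody to GFP. Because the animals were whole, a peak cannot be assigned to a cell type, and because the tagged protein came from a transgene, the strain holds it beside the endogenous gene. No other genotype or antibody was in the series, so the values below describe peak lists of 1 strain, and no test between groups was possible. No read numbers were in the lists, so depth is unknown.

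SNU-23 is the worm counterpart of a protein of the U4/U6.U5 tri-snRNP, the small nuclear ribonucleoprotein that joins the spliceosome before its activation. It acts on RNA in known biology, and chromatin immunoprecipitation can recover such proteins through RNA and other proteins held at transcribed DNA. Regions between genes in the worm include promoters of unprocessed transcripts, whose 5' ends can lie upstream of the annotated ones because trans-splicing removes the start of many pre-mRNAs, and enhancers, where RNA polymerase also starts transcription. GA repeats, alternating guanine and adenine bases, are a common element of open regulatory DNA in animals.

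The sequences around the summits of the 6 strongest regions are shown so that the base composition, GA repeats and 9-base element counted further on can be seen in the letters, or seen to be missing. Each line gives 151 bases centred on the summit, 5' to 3' on the plus strand of RefSeq's WBcel235 sequence (ce11), named by the coding gene with the nearest 5' end. Capitals mark matches to GAGAGAGA or CTGCGTCTC on either strand, so TCTCTCTC and GAGACGCAG are also in capitals, and overlapping matches run together. The regions are, in order, chrV:20778351-20778501, chrII:12102495-12102645, chrIII:4282142-4282292, chrIII:8043908-8044058, chrIII:13061237-13061387 and chrIV:2219557-2219707.
hif-1: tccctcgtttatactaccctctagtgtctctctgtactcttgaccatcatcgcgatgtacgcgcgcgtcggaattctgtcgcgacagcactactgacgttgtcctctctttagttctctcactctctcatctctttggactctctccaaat
Y17G7B.17: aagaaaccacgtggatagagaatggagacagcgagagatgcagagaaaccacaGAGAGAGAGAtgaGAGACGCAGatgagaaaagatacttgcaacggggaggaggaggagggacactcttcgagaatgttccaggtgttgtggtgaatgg
sup-26: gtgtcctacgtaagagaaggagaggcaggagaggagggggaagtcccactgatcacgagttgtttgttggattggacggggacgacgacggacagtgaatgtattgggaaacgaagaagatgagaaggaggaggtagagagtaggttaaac
K12H4.5: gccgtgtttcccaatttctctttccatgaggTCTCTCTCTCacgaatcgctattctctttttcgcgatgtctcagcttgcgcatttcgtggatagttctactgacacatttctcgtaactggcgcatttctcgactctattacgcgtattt
F54F12.1: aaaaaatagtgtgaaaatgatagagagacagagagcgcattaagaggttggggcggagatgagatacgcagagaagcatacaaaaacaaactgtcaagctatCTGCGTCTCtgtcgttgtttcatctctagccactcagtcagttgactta
T04C4.3: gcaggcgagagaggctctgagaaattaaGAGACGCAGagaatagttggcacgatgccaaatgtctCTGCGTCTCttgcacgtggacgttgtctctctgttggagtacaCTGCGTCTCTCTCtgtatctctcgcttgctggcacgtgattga
The T04C4.3 region held CTGCGTCTC or its reverse complement at 3 places, and in 1 of them the element ran into a CT repeat. The hif-1 and sup-26 regions held neither motif in these 151 bases. The sup-26 bases were nevertheless rich in interrupted G and A, and the GC content of the 6 sequences ranged from 42.4% to 51.7%.

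The strongest of the 951 regions lay upstream of hif-1 (WBGene00001851), which encodes the worm's hypoxia-inducible transcription factor. Its summit at position 20778426 of chromosome V was 1981 bp from the hif-1 5' end, in a 5037 bp gap shared with the divergent gene F38A6.4. The peak was 753 bp wide, and its signal was 731.1 (replicate 1) and 897.1 (replicate 2), with 1633 in the pooled list, where it ranked 18th of all candidates. The signal is the authors' own value for a peak relative to the control, and the pooled list has a larger scale than the lists of single replicates. Only within 1 list, or between matched peaks of the replicates, is it compared here.

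The next regions by signal were near less studied genes. The Y17G7B.17 (WBGene00012468) region on chromosome II, 2581 bp upstream of that gene, had 553.0 in replicate 1 and 668.4 in replicate 2. The sup-26 (WBGene00006331) region, 1993 bp upstream of a gene for an RNA-binding protein, had 514.4 and 643.3, and a further final summit lay 206 bp away within the same 777 bp peak. The K12H4.5 (WBGene00019680) region had 459.3 and 597.7, and at 504 bp upstream it was only just beyond the distance limit. Replicate 2 gave the higher value in each of these. The F54F12.1 (WBGene00010072) region on chromosome III had 441.6 and 547.3 at 5870 bp upstream, and a second region of the same 15313 bp gap, 7207 bp upstream, had 374.8 and 480.5. The T04C4.3 (WBGene00235277) region, 2776 bp upstream in a gap shared with fnip-2, had 426.4 and 520.4.

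Among the 25 regions with the highest pooled signal, several lay nearest to genes of known function. The lgg-1 region, 891 bp upstream of the gene for the Atg8 protein of autophagosomes, had 360.5 in replicate 1 and 501.7 in replicate 2. The aakg-1 region, near a gene for a gamma subunit of AMP-activated protein kinase, was 8281 bp upstream in a 20592 bp gap and had 395.8 and 486.0. The nhr-20 region, 4662 bp upstream of a nuclear hormone receptor gene, had 390.3 and 418.8. These 3 show that strong regions occurred at distances from 891 to 8281 bp from the nearest coding 5' end. The pptr-1 region, near a gene for a regulatory subunit of protein phosphatase 2A, had 318.2 and 375.1 at 1433 bp upstream. The mml-1 region, near a gene for a Mondo-like transcription factor, had 298.0 and 393.5 at 1864 bp upstream, and the eel-1 region, near a HECT ubiquitin ligase gene, had 348.4 and 385.6 at 554 bp upstream. Some regions also faced a better known gene across their gap: the B0546.4 region, 611 bp upstream of that gene, lay in a 1762 bp gap shared with mai-2, a mitochondrial ATPase inhibitor gene. Likewise the Y59A8B.24 region shared its gap with the dosage compensation gene dpy-21, and the T16A9.3 region lay between that gene and atfs-1, a transcription factor of the mitochondrial stress response.

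**Figure D1:**
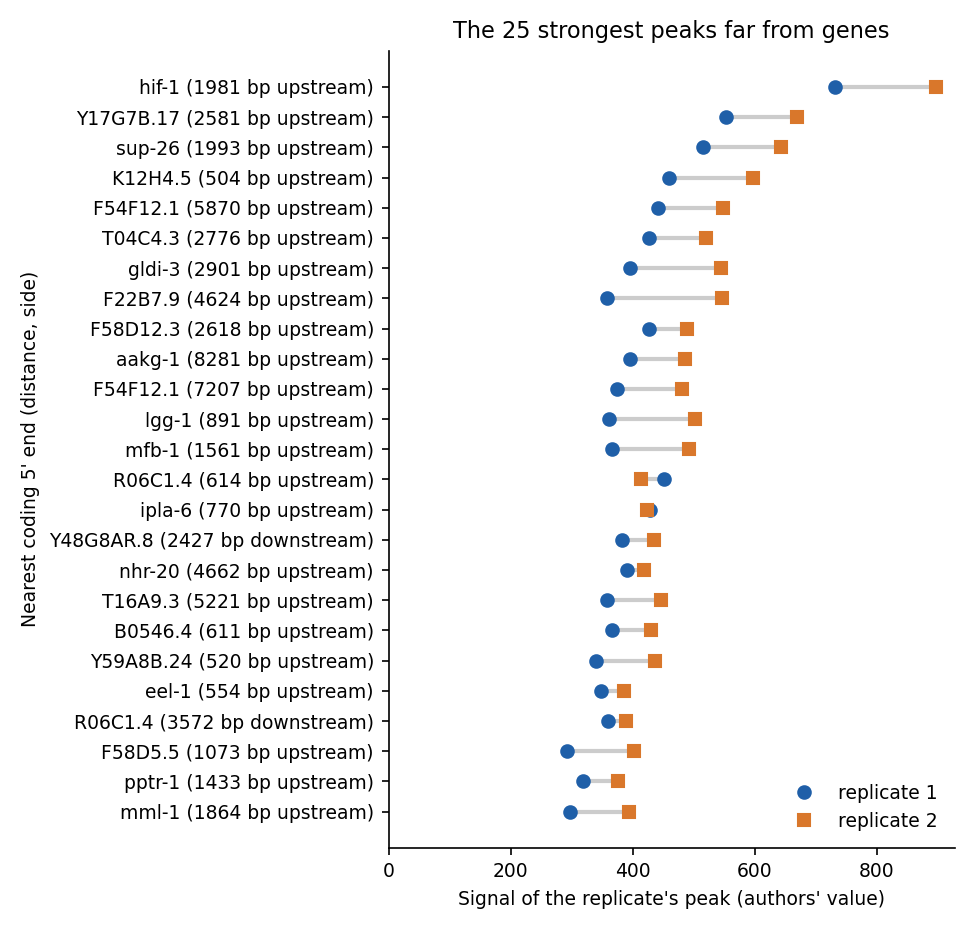
Signal of each of the 25 strongest regions in replicate 1 (circles) and replicate 2 (squares), labelled by the coding gene with the nearest 5' end, the distance and the side. Replicate 2 was higher in 23 of the 25, and the hif-1 region stood above the rest in both.

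Of these 25 regions, 23 were upstream of the nearest coding gene, 13 lay between divergent genes and 12 between genes in tandem. Over all 951 regions the shares were 88.2% upstream, 41.6% between divergent genes and 56.2% between genes in tandem. In both replicates 23 were among the first 300 candidates, and the lowest places any of them took were 355 in replicate 1 and 286 in replicate 2. The 25 were chosen by the signal of these same replicates pooled, so high places in each largely follow from the choice. The exceptions to the higher signal in replicate 2 were the R06C1.4 region at 614 bp upstream, with 451.4 against 413.1, and the ipla-6 region, with 427.4 against 422.9. The nearest coding gene had a final summit within 500 bp of its own 5' end for 7 of the 25, and for 198 (20.8%) of all 951. Chromosome III held 8 of them, chromosomes I and V held 5 each, IV held 4 and II held 3.

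Over all 951 regions the pooled signal ran from 71.7 to 1633, with a median of 137 and quartiles of 96.3 and 220. The matched median was 63.3 in replicate 1 and 75.6 in replicate 2. Peaks at gene 5' ends had a pooled median of 186 (quartiles 115 and 325), and peaks inside genes away from their ends had 123. The far regions therefore sat between these classes in the middle of their range, with a spread that overlapped both. Of the 1000 strongest pooled candidates 102 were far regions, and of the 100 strongest 4 were. Far-from-gene peaks on the X chromosome had a median of 148.

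The signals of the replicates were correlated across the far regions. Of the 951, 942 had their pooled summit inside a peak of both replicates. Across these 942 the log10 signals had a Pearson correlation of 0.906 and a Spearman correlation of 0.871. Both were lower than across the 4306 other autosomal final peaks matched in this way, which had 0.931 and 0.918. The points are regions of 1 pair of libraries chosen from both together, so these values describe the lists. The ratio of replicate 2 to replicate 1 had a median of 1.21 and a log2 standard deviation of 0.40. Replicate 2 was higher at 733 regions (77.8%), and 31 (3.29%) differed more than 2-fold. The summits themselves differed by a median of 19 bp between replicates, and 808 regions (85.8%) had summits within 50 bp of each other. The counts of 733, 31 and 808 regions were not made for other peaks, so they have no background.

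**Figure D2:**
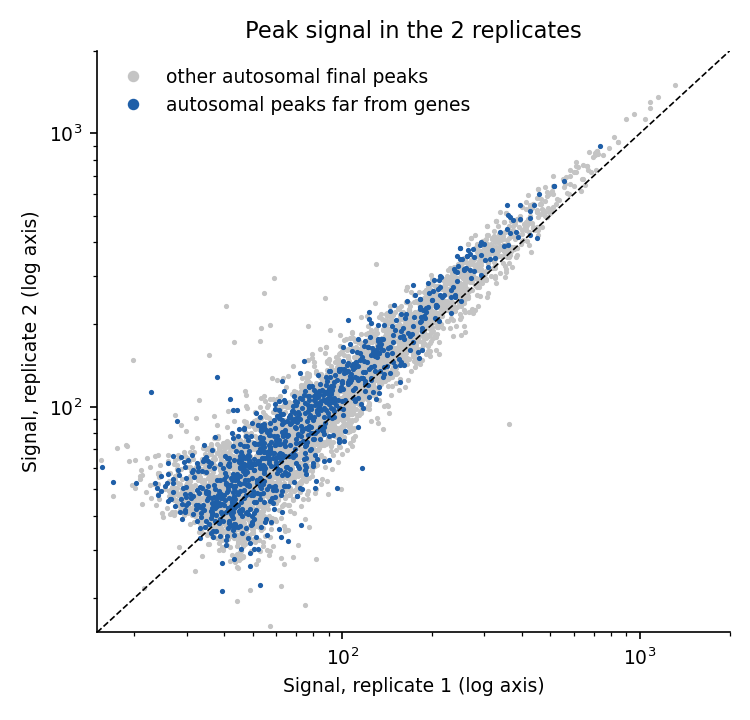
Signal of each autosomal final peak in replicate 1 against replicate 2 on log axes, with the line of equal signal dashed. The far regions lie along the band of the other autosomal peaks, with a median ratio of 1.21 against 1.14 for the others. Their Pearson correlation was lower, at 0.906 against 0.931.

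Presence among the strongest peaks of both replicates was also common. The final list was itself drawn from these replicates together, so much of this overlap was built in. Of the 951 regions, 819 (86.1%, exact 95% interval 83.8 to 88.3%) were overlapped by at least 1 bp by one of the strongest 6675 peaks of each replicate, beside 88.4% of all autosomal final peaks. Another 54 were overlapped in replicate 1 alone, 72 in replicate 2 alone and 6 in neither. With a reciprocal overlap of 50% the share of far regions in both was 59.3%. The share was 90.9% for peaks at gene 5' ends and 83.3% for peaks inside genes, so the far regions were close to the background. When the criteria were applied to the strongest 6675 peaks of each replicate alone, 942 far regions were found in replicate 1 and 947 in replicate 2.

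Widths of the 951 regions ran from 99 to 1902 bp, and the lower quartile, median and upper quartile were 208, 313 and 396 bp. The width of 396 bp was the most frequent among the candidates, and 270 regions (28.4%) had exactly that width, against 16.4% of peaks at gene 5' ends. The upper quartile is thus the default width of the peak lists. The median at gene 5' ends was 273 bp, that inside genes 314 bp, and that of far peaks on X 344 bp. In the replicate lists the far regions had medians of 380 and 384 bp, which limits what can be read from a width.

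The median region was 1807 bp from the nearest coding 5' end, measured at the summit. The middle of the set lay between 1090 and 2970 bp (quartiles), and the extremes were 503 and 11604 bp. Most regions, 839 (88.2%, exact 95% interval 86 to 90.2%), were upstream of that 5' end, and 112 were downstream, beyond the 3' end of the same gene. For scale, all 12729704 autosomal bases that meet the distance criteria were measured the same way. Their median distance was 2348 bp and 80.5% of them were upstream, so the regions were nearer to coding 5' ends, and more often upstream, than these bases. Of windows cut from this sequence 40.6% were mostly soft-masked repeats, against 5.99% of the regions at their summits. Distances, sides, gaps and densities, here and below, were not measured again without masked sequence. Within 2000 bp there were 534 regions (56.2%) and 43.2% of the available bases, and beyond 5000 bp there were 92 regions (9.67%) and 18.6% of the bases. The farthest region was 11604 bp downstream of the 5' end of snt-1, the synaptotagmin gene, with a pooled signal of 236.5.

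Expressed per Mb of available sequence, upstream regions were densest between 1001 and 2000 bp, at 105 per Mb (298 regions), and between 501 and 1000 bp, at 91.2 per Mb (210 regions). Density was 84.9 per Mb from 2001 to 3000 bp, 62.6 from 3001 to 5000 bp and 44.4 beyond 5000 bp. It was thus lower in each bin past 2000 bp. Downstream of the nearest coding 5' end it was 80.7 per Mb between 1001 and 2000 bp (26 regions) and 29.0 per Mb beyond 5000 bp (25 regions). No downstream region lay between 501 and 1000 bp, where only 0.0304 Mb of sequence qualified. Signal was close on both sides, with a median of 138 upstream and 134 downstream, although the median distances were 1666 and 2708 bp. By distance, the median pooled signal of upstream regions was 147 at 501 to 1000 bp and 113 beyond 5000 bp.

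**Figure D3:**
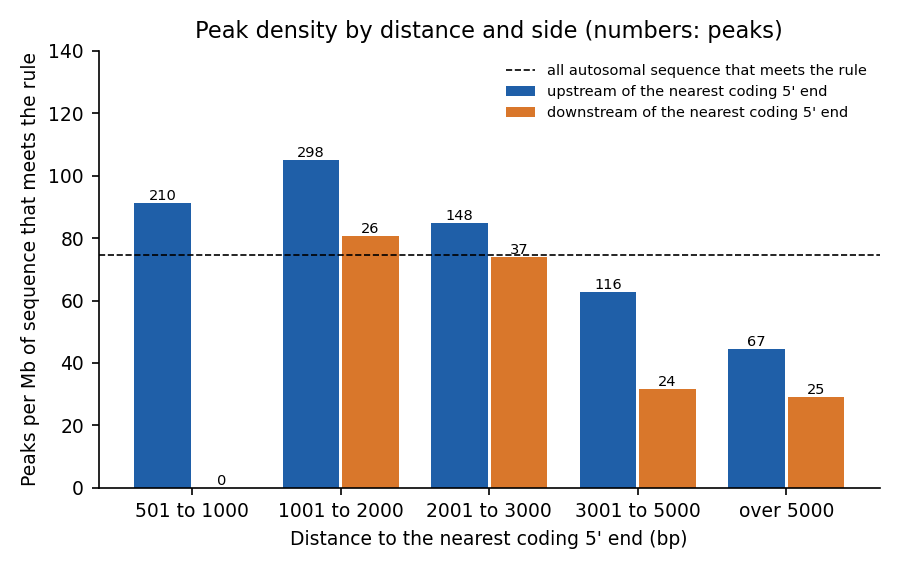
Far regions per Mb of autosomal sequence that meets the distance criteria, by distance to the nearest coding 5' end and side, with the number of regions over each bar and the value for all such sequence, 74.7 per Mb, as a dashed line. Upstream bars pass the line out to 3000 bp and fall below it beyond, to 44.4 per Mb past 5000 bp.

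The regions just inside the distance limit had values near those just outside it in signal, with narrower peaks. The 88 regions with the nearest gene end at 501 to 600 bp had a median signal of 149, a width of 272 bp and a share in both replicates of 85.2%. The 125 intergenic autosomal peaks just outside, at 401 to 500 bp, had 167, 327 bp and 92.0%. Counting genes of every biotype, the median distance to the nearest gene end was 1217 bp. That end belonged to a coding gene for 712 regions (74.9%), to an ncRNA gene for 148 (15.6%), to a piRNA gene for 31 and to a snoRNA gene for 24. The nearest biotype was not counted for the available sequence, so these counts have no background.

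The arrangement of the flanking coding genes differed from that of the available sequence mainly in convergent gaps, where both flanking genes end. Only 21 regions (2.21%) lay between convergent genes, which held 7.68% of the available bases, and their density there was 21.5 per Mb. Gaps between divergent genes held 396 regions (41.6%) at 79.9 per Mb, and gaps between genes in tandem held 534 (56.2%) at 78.7 per Mb. Median signal was 139 in divergent, 135 in tandem and 135 in convergent gaps. Of the 112 downstream regions 93 were in tandem gaps and 19 in convergent ones.

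The 951 regions were spread over 690 gaps between coding genes. In 167 of these gaps there were at least 2 regions, together 428 (45.0%), and the most in any gap was 6. That number occurred in the 13888 bp between rho-1, a small GTPase gene, and zip-7, a bZIP transcription factor gene, and in the 13541 bp between F53H2.3 and fce-2. The F54F12.1 gap and the 14755 bp gap beside nhr-88 held 5 each. Another final summit lay within 1000 bp of 198 regions (20.8%), and the median distance to the nearest one was 2392 bp. Regions in 1 gap are therefore not all independent observations.

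The regions named 780 coding genes as nearest, 651 of them once. Among these 780 genes, 140 (17.9%) had a final summit within 500 bp of their own 5' end, beside 16.9% of all autosomal coding genes. A narrower background is the 7677 coding genes that are nearest to any available base, of which 12.2% had such a summit, and 11.5% of those without a far region. Sequence nearest to genes with a summit at their own 5' end held 146 regions per Mb (1.36 Mb), and sequence nearest to genes without one held 66.2 per Mb (11.4 Mb). Signal was alike, with a median of 139 for the 198 regions whose nearest gene had such a summit and 136 for the rest.

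By the symbol of the nearest coding gene, transcription factors were nearest to 60 regions. They were 46 of the 287 transcription factor genes next to available sequence (16%, against 10.2% of all such coding genes), at 88.9 regions per Mb against 74.7. This list was drawn by gene symbol and does not hold mml-1, the Mondo-like factor described above. Within the list, the highest after hif-1 and nhr-20 was nhr-88, a nuclear hormone receptor gene with 252 (replicate 1) and 347 (replicate 2) at 2598 bp upstream. Chemoreceptor genes, a large family expressed in sensory neurons, were nearest to 8 regions, 1.29% of 621 genes and 13.6 per Mb. Only 2 of these 8 were upstream, among them the srh-17 region with 91.27 and 118.8 at 504 bp upstream. Of 82 neuropeptide and insulin genes next to 0.222 Mb of available sequence, 0 were nearest to a far region.

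Neurotransmitter receptor and channel genes were nearest to 16 regions (9.04% of 177 genes, 30.4 per Mb). The asic-2 region, near a gene of the acid-sensing type of sodium channel, had 133 in replicate 1 and 157 in replicate 2. The inx-13 region, near an innexin gap junction gene, had 129 and 157, and the region of the acetylcholine receptor subunit gene unc-63 had 77.0 and 99.2. Genes of axon guidance and adhesion were nearest to 5 regions at 43.1 per Mb, led by the plexin gene plx-1 with 208 and 234 at 1507 bp upstream. The unc-33 region followed with 111 and 146, and the zig-1 region had 43 and 97.1, more than a 2-fold gap between replicates. All of these neuronal lists had fewer regions per Mb than the autosomes as a whole.

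Cuticle collagen genes were nearest to 5 regions at 63 per Mb, among them col-42 with 82.6 and 109, dpy-10 with 81.46 and 103.3 and col-108 with 52.2 and 53. C-type lectin genes had 3 regions at 34.6 per Mb, of which the clec-91 region had the highest signal, 69.8 and 73.6. F-box and BATH protein genes had 3 regions at 16.6 per Mb, and 2 of them lay at bath-44. Ribosomal protein genes, short of available sequence at 0.0314 Mb, had 2 regions, with 132.4 and 118.6 at rps-28 and 56.5 and 63.7 at rpl-21. Signalling genes had 4 regions at 65.0 per Mb: let-756, a fibroblast growth factor gene, had 2, with 88.6 and 124 at 4612 bp upstream and 87.3 and 113 at 1807 bp upstream, and the TGF-beta ligand gene dbl-1 had 33.7 and 42.6. Lists of fewer than 10 regions give densities with a wide counting error.

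Far regions occurred on every autosome, but at unequal density. Per Mb of available sequence there were 100 on chromosome III, 98.4 on I, 71.3 on II, 63.7 on IV and 51.5 on V. The density of all other final peaks over the rest of each autosome had its highest values on III and I too, at 79.4 and 71.4 per Mb, and its lowest, 48.2, on V. When each autosome was cut into 5 equal parts, the density from one end to the other was 55.7, 75.2, 92.3, 82.4 and 68.1 per Mb, so the centres held more regions per available Mb than the arms. Over the autosomes it was 74.7 per Mb, beside 62.6 for the other final peaks elsewhere, and on X the far peaks had 72.2 and the others 77.7 per Mb.

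The endogenous positions of the genes carried by the transgene were also examined. One far region lay within 20 kb of snu-23 itself, 14336 bp away with a pooled signal of 85.3, and 0 lay within 20 kb of unc-119, where the nearest was 78325 bp away.

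Base composition at the summits stood out from the flanks. Within 50 bp of the summit the median GC content was 44.6% (quartiles 39.6 and 49.5%), and 500 bp to either side it was 32.7%. The median difference was 11.9 percentage points, and the summit was richer in 860 of 951 regions (90.4%). The difference was 11.4 points in replicate 1 and 11.9 in replicate 2 when each was used alone. Summits at coding 5' ends had 45.5% and a difference of 7.92 points, since their flanks had 36.6%. Summits inside genes away from their ends had the same median as the far regions, 44.6%, with flanks of 35.6% and a difference of 8.42 points. All 39064 windows of the available sequence had a median of 33.7%, and far candidates ranked below 20000 had 36.6% with a difference of 3.47 points. Within the set, the stronger 475 regions had a difference of 13.4 points and the weaker 476 had 9.90. Summits of 57 regions (5.99%) were mostly in soft-masked repeats, against 40.6% of the windows. The share was 5.46% for peaks inside genes and 11.2% for peaks at coding 5' ends.

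The regions were also marked by GA repeats, as seen in several sequences above. Within 150 bp of the summit, GAGAGAGA occurred on either strand in 255 regions (26.8%, exact 95% interval 24.0 to 29.8%). It occurred in 2.98% of all windows of that length in the available sequence, and in 5.72% of the windows whose GC content lay between the regions' quartiles. These GC-limited windows were not fully matched to the regions. Within 50 bp of the centre their median GC content was 40.6%, against 44.6%, and 25.4% of them were mostly soft-masked there, against 5.99%. Far regions of replicate 1 alone had 25.8% and those of replicate 2 alone 27.9%. At coding 5' ends the share was 9.44%, inside genes 24.8%, and among far candidates below the final list 9.36%. The share in far regions was thus nearer to that of peaks inside genes than to that of peaks at coding 5' ends. Of the 255, 127 (49.8%) had a match within 50 bp of the summit. Of all 6-base words, GAGAGA or its reverse complement differed most between far regions (66.6%) and windows (15.9%). It was picked by that difference, so the gap is no separate support for the GA repeat. At coding 5' ends its share was 38.2%.

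The second motif, CTGCGTCTC, occurred in 178 regions (18.7%, exact 95% interval 16.3 to 21.3%), against 1.88% of all windows and 4.21% of the GC-limited windows. It was in 13.8% of peaks at coding 5' ends and 17.3% of those inside genes. Its matches were closer to the summit than those of the GA repeat, with a median distance of 33 bp against 51 bp, and 123 of 178 (69.1%) lay within 50 bp. Read relative to the nearest coding gene, CTGCGTCTC lay on the gene's strand in 108 regions, on the opposite strand in 62 and on both in 8. GAGAGAGA lay on the gene's strand in 93, on the opposite in 143 and on both in 19.

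Median signal was higher in regions with these motifs, a description with no test. The 70 with both had a median of 90.7 in replicate 1, 114 in replicate 2 and 196 in the pool. The 185 with the GA repeat alone had 75, 97.2 and 168, and the 108 with CTGCGTCTC alone had 69.0, 84.1 and 152. The 588 with neither (61.8%) had 59.1, 67.3 and 125. The order was the same in each replicate, and 14 of the 25 strongest regions had at least 1 of the motifs. Median distance to the coding 5' end ranged from 1580 to 1915 bp over these 4 kinds, and the regions with neither motif lay within that range. A match is a description of the letters and not a binding site.

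**Figure D4:**
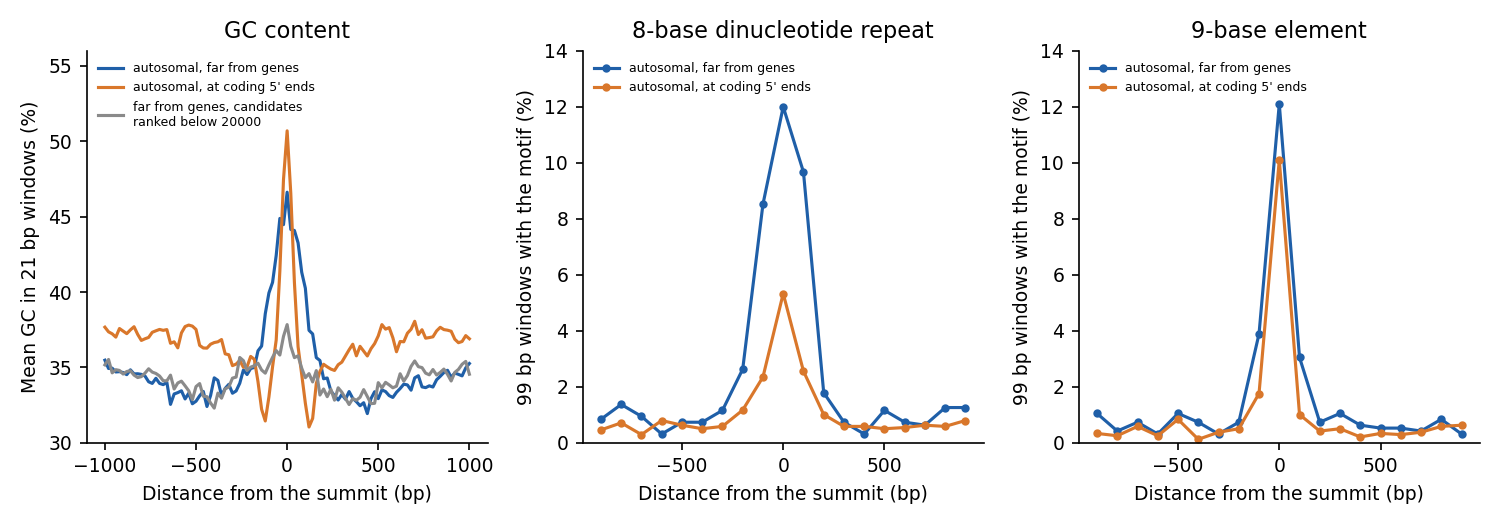
Mean GC content in 21 bp windows around the summit (left), and the share of 99 bp windows with GAGAGAGA (middle) or CTGCGTCTC (right), by distance from the summit in bp. At the summit 12% of far regions had the GA repeat and 12.1% the 9-base element, and 100 bp to either side the GA repeat was in 8.52 and 9.67% of far regions and in 2.35 and 2.56% of peaks at coding 5' ends.

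The other 12 motifs searched, on both strands, differed less from the windows. CACGTG, the canonical E box, was in 15.1% of far regions, 4.22% of all windows and 6.75% of GC-limited windows. It was in 8.81% of peaks at coding 5' ends and 16.8% of those inside genes. GGGCGG was in 10.9% against 5.45 and 9.79%, so it was close to the share of GC-limited windows. TATAAA was in 19.1% of far regions, 31.3% of windows and 19.1% of GC-limited windows, and TTTTTTTT in 24.0, 35.5 and 21.6%. TGATAA (24.6 against 23.4%), CCAAT (47.5 against 45.6%), TTCCCGC (4.63 against 4.4%) and TGACGTCA (2.00 against 1.74%) were near the share of all windows. Their shares of GC-limited windows were 18.3, 47.8, 5.69 and 2.81%, so TGATAA was above those windows and TTCCCGC and TGACGTCA were below them. GTAAACA was in 5.26% of far regions, 3.86% of all windows and 3.56% of GC-limited windows, and TGACTCA in 2.52, 3.09 and 3.13%. The tRNA gene promoter letters GGTTCGA (1.47 against 2.27%) and TGGCNNAGT (2.21 against 3.07%) were below all windows, and also below the GC-limited windows, at 2.97 and 4.61%.

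Copies of the far regions were sought elsewhere in the genome. The search was not made for other peaks or for the available sequence, so the count has no background. A second match of at least 90% identity over at least 81 of the 101 bases around the summit was found elsewhere in the genome for 7 regions (0.736%). Their median signal was 94.0, against 138 for the rest.

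The share of far regions depended on the rank considered. Among the 1000 strongest pooled candidates, 12.6% of the autosomal ones were far from genes, and the share was 20.9% at ranks 3001 to 4000. It was highest at ranks 8001 to 9000, with 24.7%, which is below the end of the final list, and 10.9% at ranks 28001 to 29000. All autosomal candidates below the final list had 16.2%, close to the 15.4% of the autosomes' length that meets the distance criteria.

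**Figure D5:**
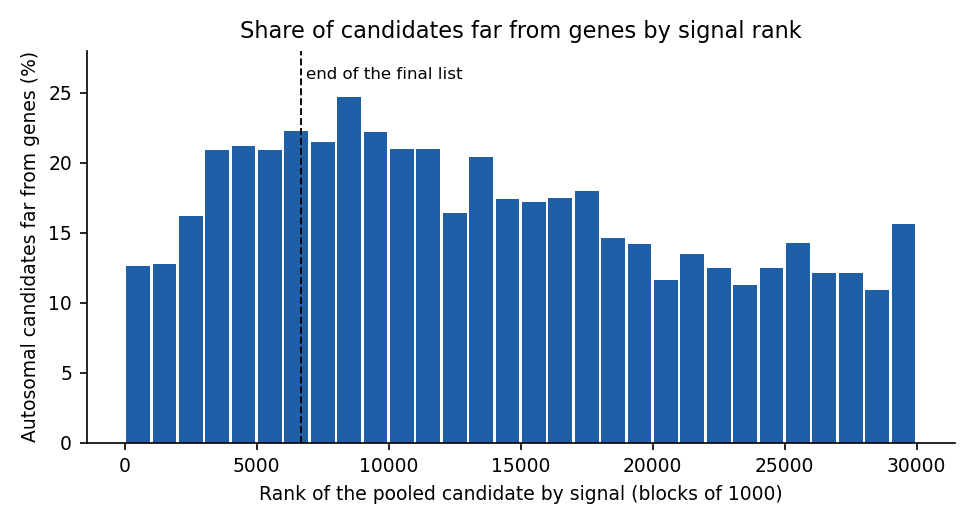
Percent of autosomal pooled candidates that met the distance criteria, in blocks of 1000 by signal rank, with the end of the final list dashed. The share rises from 12.6% in the first block to 24.7% at ranks 8001 to 9000 and is lower in the weakest blocks.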

How the data were processed

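SNU-23-GFP chromatin immunoprecipitation was analysed from the authors' ce11 peak lists: 30000 candidates for each of 2 biological replicates, 30000 candidates of the pooled replicates, and a final list thresholded by the irreproducible discovery rate. Candidates were called with a control alignment, per the deposited file descriptions. The names of the peak caller and the aligner were not given in the sources used here. The deposited signal value of a peak is relative to the control, by the authors, and was used within a list or between matched peaks. The deposited −log10 q-value was 4.38 for every final peak and ranked nothing. All per-sample columns were used except those of the ce10 lists, which were not analysed here because no annotation of that build was at hand. The final list held exactly the strongest 6675 pooled candidates.

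Summits were placed on Ensembl release 115 genes (46890, of them 19973 coding) and RefSeq sequence of WBcel235, whose chromosome lengths match ce11. Distances are to the nearest coding 5' end, and soft-masking follows RefSeq. Sequence that meets the same criteria was counted base by base, or in 301 bp windows (39064), as the comparison. GC content was read within 50 bp of each summit and 500 bp to either side. Copies were sought with blastn 2.17.0. Python 3.11.15, numpy 2.4.6, pandas 2.3.3 and scipy 1.17.1 were used. The code for the distance criteria, nearest 5' ends and overlaps was checked on simulated data, and the other steps were not. Intervals are exact (Clopper-Pearson, 95%) and cover counting error only. They treat neighbouring regions as independent. Replicate error was taken by repeating each value in each replicate's own list, on its strongest 6675 peaks. No test was run, since there was 1 group.

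The regions, gene families and motifs were chosen with earlier results of these data known. Named regions are the 25 with the highest signal, with their flanking coding genes, and the 3 strongest of each family. Regions named for distance or for the number in a gap were chosen after their values were seen. Families were taken by gene symbol alone. Sequences are those of the strongest regions eligible for printing.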

Additional observations from a re-analysis of the deposited data

How the results depend on the processing

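Of 85 alternative values of 13 results, 28 were close to the reported value, 57 moved and 0 reversed. Close means within 1 SD between the replicates, except for the number of regions, where it means within 1.5 times. The SD rests on 2 values and was 0.071 points for the share, so 17.8% against 17.9% counted as moved. Signals of single replicates also counted as moved, although the pooled list has a larger scale. The tally therefore does not measure how robust the results are. Reversed means a change of sign, which only the GC difference could show, so the absence of reversals says nothing about the other results. With each replicate alone, the number of regions ranged from 942 to 947, the share from 17.7 to 17.8%, the distance from 1777 to 1794 bp, the upstream share from 87.8 to 88.4%, the width from 380 to 384 bp, the signal from 64.0 to 75.2, recovery in the other replicate from 86.9 to 88.7%, the GC difference from 11.4 to 11.9 points, the density from 74.0 to 74.4 per Mb, the GA share from 25.8 to 27.9% and the CTGCGTCTC share from 18.7 to 19.4%. No paired analysis was possible because there was 1 group.

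With the strongest 3337 final peaks there were 395 regions, with a share of 14.7%, a distance of 1750 bp and a width of 307 bp. Their signal was 247, recovery 100%, the GC difference 12.9 points, the density 31.0 per Mb, the GA share 37.2% and the CTGCGTCTC share 24.8%. The shorter list was cut by pooled signal, so its higher signal and recovery and its lower count and density largely follow from the cut. A margin of 250 bp gave 1461 regions, a share of 27.5%, 1274 bp, 90.6% upstream, a width of 302 bp, a signal of 152, recovery of 88.4%, 11.4 points, 84.7 per Mb, 21.9% and 19.5%. A margin of 1000 bp gave 586 regions, 11%, 2274 bp, 88.7% upstream, a width of 331.5 bp, 72.9 per Mb, 30.5% and 20.3%. With coding genes only there were 1397 regions, the share was 26.2%, the distance 1871 bp, the width 327 bp, the GC difference 12.4 points, the density 70.8 per Mb and the CTGCGTCTC share 18.2%. Requiring no base of the peak in a gene gave 948 regions, a share of 17.8% and a width of 310 bp.

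Recovery was 84.8% with the pooled summit inside the replicate peak and 59.3% with a reciprocal overlap of 50%, and the GC difference was 9.95 points within 100 bp. Limits on the windows were chosen after seeing the data. Against all windows the GA repeat was 8.99 times and CTGCGTCTC 9.95 times as common. Against the GC-limited windows, which were not fully matched, they were 4.69 and 4.44 times as common. Against windows not mostly masked they were 6.78 and 9.17 times as common. The alternatives for both motif shares were also chosen after seeing the data. Depth is unknown, control reads were not analysed here, and the replicates were not compared with a strain without the tag.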
